A study of Mus musculus with 22 samples.

Results

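The 5 libraries described here hold endothelial cells of the spinal cord of wild-type mouse embryos at E12.5 (days of embryonic development), out of 22 libraries in the series. They were chosen by their labels: batches 1, 2 and 3 came from the ventral part of the cord (3 libraries, called ventral below), and batches 4 and 5 from the whole cord (2 libraries, called whole). All groups shared genotype and sort: cells were wild type and were sorted for Cherry, a red fluorescent protein that reports Kdr, a VEGF receptor of endothelial cells. Embryos of 1 genotype were pooled before the tissue was dissociated with papain, and polyadenylated RNA was sequenced. Meningeal endothelial cells of the same 5 batches (3 and 2 libraries), taken from the membranes around the cord with no stated difference in dissection, served as a check of what differed between batches 1 to 3 and batches 4 to 5. Because dissection changed with batch, ventral dissection and batch cannot be told apart in the cord.

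Vessels enter the embryonic spinal cord from a plexus in the meninges and sprout among progenitors and newborn neurons. The cord is patterned from dorsal to ventral: roof plate signals of the BMP and Wnt families act on dorsal progenitors, Sonic hedgehog from the floor plate acts on ventral ones, and each domain makes neurons with their own transcription factors. Dorsal interneurons relay touch, itch and pain, and ventral ones and motor neurons drive movement. Sorted endothelial cells carry some RNA of such neighbours, so genes of dorsal and ventral cells can be read in the same libraries.

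Levels are given as CPM, a gene's counts as a share of the scaled library total on the usual CPM scale, with the ventral libraries in the order of batches 1, 2 and 3 and the whole libraries in the order 4 and 5. Totals ranged from 15685784 to 21493255 counts over the 10 libraries. A gene is called where edgeR's quasi-likelihood test gave an adjusted p under 0.05 (Benjamini-Hochberg over 17901 genes), and ± is the standard error of a log2 fold change, positive where ventral was higher. The libraries of batches 4 and 5 were much closer to each other than those of batches 1 to 3. The mean chi-square per gene was 9.58 between the whole libraries and 12.8 between their meningeal partners, against 36.5 to 93.8 between ventral libraries and 37.8 to 114 between meningeal libraries 1 to 3. Ventral batch 2 stood apart. On the second principal component (8.95% of the variance) it lay at -9.02, between the other ventral libraries (-44.3 and -46.3) and the whole ones (52.5 and 47.7). Eif2s3y, a gene of the Y chromosome, was at 0 CPM in ventral batch 2 and in meningeal batch 1, and at 21.3 to 49.4 CPM in the other 8 libraries. The same numbers in cord and meninges therefore did not match in this gene for batches 1 and 2.

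Between ventral and whole cord, 918 genes were higher and 995 lower, 10.7% of those tested (5.13% and 5.56%). At least a 2-fold change was seen in 379 of the higher and 393 of the lower genes. This count rested on the 2 whole libraries: without batch 4 of the whole cord 3 genes were higher and 12 lower, and without batch 5 the counts were 32 and 89. Leaving out a whole library leaves that arm with 1, whose spread is then assumed to be that of the other groups. The counts were 228 and 440 without ventral batch 1, 1658 and 1464 without ventral batch 2, 506 and 626 without ventral batch 3, 489 and 590 without meningeal batch 4, and 471 and 663 without meningeal batch 5. In the meninges, 2 genes were higher and 4 lower in batches 1 to 3 than in batches 4 to 5, 0.0335% of those tested, while 2352 genes had an unadjusted p under 0.05 and DESeq2 called 84 higher and 57 lower. All 6 were also called in the cord, in the same direction.

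Genes of dorsal neurons were low in the ventral libraries. Npy encodes neuropeptide Y, a peptide transmitter of inhibitory dorsal horn neurons. It was at 3.35, 3.05 and 4.41 CPM in the ventral libraries and at 23.4 and 21.6 in the whole ones, while the meningeal libraries held 0.807 to 2.02. The groups did not overlap, and the log2 fold change was -2.64 ± 0.24 (edgeR adjusted p = 0.00112). Its fold change in the meninges, batches 1 to 3 against 4 to 5, was 0.92 ± 0.31 (edgeR adjusted p = 0.311), and the difference between cord and meninges was -3.56 (edgeR adjusted p = 0.0248, 0.0431 with the batch number as a block, and 0.0521 with a correction for exon length, where it was not called).

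Of 12 tested transcription factor genes of dorsal neurons, 7 were lower in ventral, where 5.56% of all genes tested were, and none was higher; the list's median log2 fold change was -1.71 against 0.02 over all genes tested. In 11 of the 12 every ventral library lay below both whole ones, which was the case for 25.6% of all genes tested. The meningeal check is weak for these genes, since with only meningeal libraries 3 of the 12 passed the filter for low counts. In the meninges 0 of the 12 were called, where 0.0335% of all genes tested were, and the median was 0.32. The count fell to 0 without batch 4 and to 1 without batch 5 of the whole cord, and was 5 or 6 when 1 ventral library was left out. With a correction for exon length it was 7. In the difference between cord and meninges none of the 12 was called (median -2.23, and edgeR adjusted p = 0.0509 for Lmx1b).

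Among these genes, Lmx1b and Tlx3 specify excitatory dorsal horn neurons. Lmx1b was at 6.87, 2.89 and 4.5 CPM in ventral and at 29.9 and 29.2 in whole (log2 fold change -2.64 ± 0.33, edgeR adjusted p = 0.00456). The level of Tlx3 was 1.47, 0.544 and 1.44 CPM in ventral against 8.75 and 7.33 in whole (-2.79 ± 0.56, edgeR adjusted p = 0.0163). Neither gene's groups overlapped, and the meninges held 3.28 to 6.18 CPM of Lmx1b and 1.13 to 6.06 of Tlx3. Lbx1, which separates a set of dorsal interneurons from the more dorsal classes, stood at 4.29, 3.21 and 5.81 CPM against 17.1 and 17 (-1.94 ± 0.31, edgeR adjusted p = 0.00755). Skor1, a corepressor that acts with Lbx1, was at 6.57, 4.36 and 9.41 CPM against 27.9 and 28.7 (-2.06 ± 0.34, edgeR adjusted p = 0.00878). Both were near 0 in the meninges, where Lbx1 reached at most 0.592 CPM and Skor1 at most 0.336.

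Lhx2, a gene of the commissural neurons that arise next to the roof plate, was at 0.822, 0.871 and 0.676 CPM in ventral and at 4.24 and 3.56 in whole (-2.30 ± 0.41, edgeR adjusted p = 0.0107). Gbx1, expressed in dorsal inhibitory neurons, was at 2.99, 1.63 and 4.5 CPM against 13.1 and 13.5 (-2.11 ± 0.45, edgeR adjusted p = 0.0196). Pou4f1, which encodes the POU factor Brn3a of dorsal interneurons and sensory ganglia, was at 6.46, 4.08 and 5.99 CPM against 15.1 and 15.9 (-1.49 ± 0.42, edgeR adjusted p = 0.0475). In these 3 genes too, every ventral library was below both whole ones. Pou4f1 also reached 4.73 to 17.6 CPM in the meninges, so its RNA was not confined to the cord. Prdm13 and Barhl1, 2 genes of early dorsal precursors and neurons, were not called, with log2 fold changes of -0.43 ± 0.44 and -1.19 ± 0.45 (edgeR adjusted p = 0.547 and 0.109).

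The promoters of the dorsal neuron genes were read from RefSeq (GRCm38.p6), where 11 of the 14 listed genes have an entry and Lbx1, Drgx and Gbx1 have none. The 250 bases before the start are shown for Npy and for 2 called factors, 5′ to 3′ on the gene's strand, with CAGCTG in capitals. CAGCTG is an E-box, a motif of basic helix-loop-helix factors such as those that pattern dorsal progenitors, and it reads the same on both strands.
Npy, chr6:49822460-49822709, plus strand: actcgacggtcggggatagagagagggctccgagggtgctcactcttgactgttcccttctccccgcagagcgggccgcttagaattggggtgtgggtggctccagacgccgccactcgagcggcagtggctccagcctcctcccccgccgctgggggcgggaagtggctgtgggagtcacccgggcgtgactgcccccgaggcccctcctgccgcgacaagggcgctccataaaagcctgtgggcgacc
Lmx1b, chr2:33641099-33641348, minus strand: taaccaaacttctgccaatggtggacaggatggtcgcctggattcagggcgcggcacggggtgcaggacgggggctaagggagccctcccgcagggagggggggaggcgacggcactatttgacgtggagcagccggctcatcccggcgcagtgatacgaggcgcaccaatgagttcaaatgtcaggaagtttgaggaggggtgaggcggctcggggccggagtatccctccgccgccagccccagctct
Pou4f1, chr14:104468000-104468249, minus strand: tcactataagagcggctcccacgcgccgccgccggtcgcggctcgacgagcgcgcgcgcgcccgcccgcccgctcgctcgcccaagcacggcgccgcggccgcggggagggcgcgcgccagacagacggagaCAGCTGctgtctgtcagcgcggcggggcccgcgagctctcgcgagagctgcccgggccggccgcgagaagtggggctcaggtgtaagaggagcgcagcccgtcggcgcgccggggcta
Pou4f1 held 1 copy of CAGCTG, and Npy and Lmx1b held none. The motif was in 3 of the 15 promoter entries of the dorsal neuron genes (20%) and in 13% of all 32851 entries. TAATTA, a core that many homeodomain proteins bind and that also reads the same on both strands, was in 0 of the 15 entries and in 4.84% of all. Whether these motifs bear on the levels in ventral and whole libraries was not tested.

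Of 12 tested genes of dorsal progenitors none was called, and the median log2 fold change was -0.16. In 7 the fold change was below 0, and in 5 every ventral library lay below both whole ones (25.6% of all genes tested). Gsx1, of progenitors in the middle of the dorsal cord, was at 1.12, 0.544 and 0.721 CPM in ventral and at 3.13 and 2.63 in whole (-1.86 ± 0.53, edgeR adjusted p = 0.0533). By DESeq2, with only spinal libraries, and without meningeal batch 1, 2, 3 or 5, 1 member was called lower, and without ventral batch 2 1 was called higher. Pax3, which marks the progenitors of the dorsal cord, was at 28.2, 14.4 and 28.4 CPM in ventral and at 23.4 and 24.3 in whole (-0.01 ± 0.30, edgeR adjusted p = 0.987). Pax7, a dorsal progenitor gene with a more ventral limit, was at 18.3, 7.62 and 18.9 CPM against 10.5 and 10.8 (0.49 ± 0.45, edgeR adjusted p = 0.497). Both genes overlapped between the groups, with the lowest value in ventral batch 2. Olig3, of the most dorsal progenitors and of some newborn neurons, was at 16.3, 8.98 and 29.1 CPM against 6.92 and 8.42 (1.24 ± 0.48, edgeR adjusted p = 0.118).

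**Figure D1:**
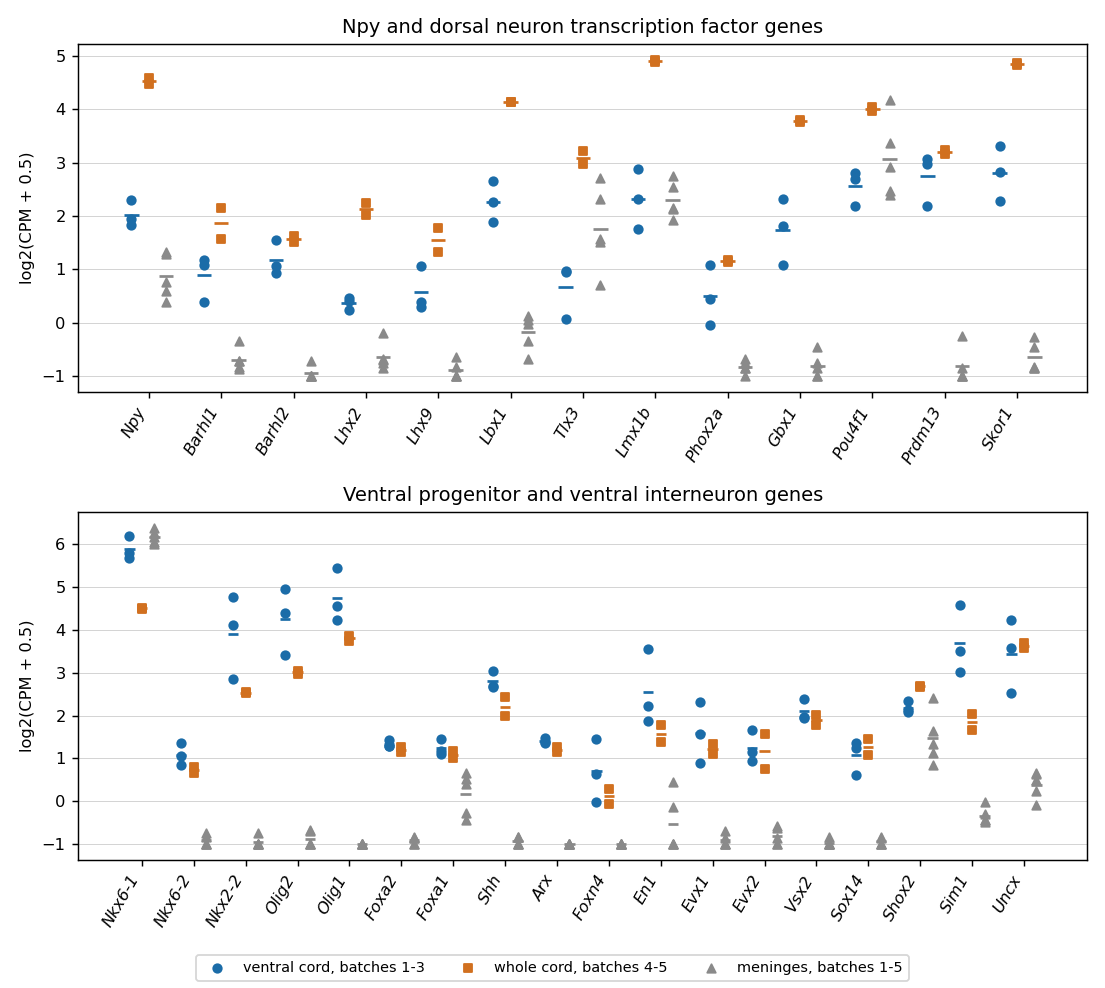
Levels of dorsal neuron genes (top) and of ventral progenitor and interneuron genes (bottom), as log2(CPM + 0.5), in 3 ventral, 2 whole and 5 meningeal libraries; points are libraries and bars are means of the log values per group. Npy, Lbx1, Lmx1b, Gbx1 and Skor1 lie lower in all ventral than in both whole libraries, and Nkx6-1 is as high in the meninges as in ventral cord.

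Among ventral genes, the call with the smallest p was Nkx6-1. Nkx6-1, a homeodomain factor of ventral progenitors and motor neurons, was at 55.4, 50.7 and 72.4 CPM in ventral and at 22.4 and 22.1 in whole, with a log2 fold change of 1.42 ± 0.16 (edgeR adjusted p = 0.00278). The meningeal libraries held 63.3 to 83.4 CPM of it, as much as the ventral cord, with a fold change between their batches of -0.26 ± 0.15. Its difference between cord and meninges was 1.68 (edgeR adjusted p = 0.0294, 0.0553 with the batch number as a block, and 0.0521 with the length correction).

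Nkx6-1 was the only one of 10 tested ventral progenitor genes to be called, against 5.13% of all genes called higher; all 10 had a fold change above 0, and in 8 the groups did not overlap (24.1% of all genes). Their median log2 fold change was 0.85, and 0.00 in the meninges, where 2 of the 10 passed the filter with only meningeal libraries. By DESeq2 and without ventral batch 2, 4 members were called higher, and without whole batch 4 none was. Olig2, which motor neuron progenitors need, was at 30.5, 10.2 and 20.6 CPM in ventral and at 7.77 and 7.33 in whole (1.43 ± 0.42, edgeR adjusted p = 0.0586). Nkx2-2, of the progenitors next to the floor plate, was at 16.9, 6.7 and 26.8 CPM against 5.29 and 5.32 (1.66 ± 0.53, edgeR adjusted p = 0.0777). Both were at or near 0 in the meninges, and ventral batch 2 held the lowest ventral value of each.

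Of all genes tested, 5.13% were called higher. Among ventral interneuron genes 1 of 8 was called. Sim1, a factor of V3 interneurons, was at 10.9, 7.57 and 23.6 CPM in ventral and at 2.68 and 3.61 in whole (2.15 ± 0.45, edgeR adjusted p = 0.0188). Of 10 motor neuron genes, only Slc5a7, the choline transporter, was called, at 45.6, 73.9 and 38.2 CPM against 26.2 and 30.6 (0.89 ± 0.24, edgeR adjusted p = 0.0436). The meninges held 12.6 to 14.6 CPM of Slc5a7. It was not called with the length correction (edgeR adjusted p = 0.0617), with only spinal libraries, or without ventral batch 1, meningeal batch 3, 4 or 5, or either whole library. In the other 9 motor neuron genes the groups overlapped. Of all genes tested, 24.1% had every ventral library above both whole ones and 25.6% every ventral library below. Mnx1, which keeps motor neuron identity, had a log2 fold change of 0.14 ± 0.59, and Chat, the enzyme that makes acetylcholine, 0.26 ± 0.65 (edgeR adjusted p = 0.897 and 0.824).

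Summed over 13 dorsal neuron genes, the level was 43.9, 26.7 and 44.6 CPM in ventral and 134 and 136 in whole. Summed over 20 ventral progenitor and interneuron genes without Nkx6-1, it was 146, 80.8 and 157 CPM in ventral and 69.1 and 71.4 in whole. The dorsal sum divided by the ventral sum was thus 0.3, 0.33 and 0.284 in ventral and 1.94 and 1.9 in whole. This ratio does not depend on the library total. With Nkx6-1 in the ventral sum it was 0.217, 0.203 and 0.194 in ventral and 1.47 and 1.45 in whole. In the meninges the dorsal sum was 9.71 to 31.3 CPM and the ventral sum without Nkx6-1 was 3.55 to 8.37. Their ratio was 2.23 to 4.55 there, so a high ratio was not confined to libraries that hold dorsal cord. Ventral batch 2 was the lowest ventral library in both sums. Its ratio without Nkx6-1 was the highest of the 3 ventral ones, still far below the whole libraries.

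Genes shared by most neurons gave no call either. None of 15 pan-neuronal genes was called, and the median log2 fold change was -0.15 (0.83 in the meninges). Map2, a dendritic microtubule protein, was at 443, 306 and 677 CPM in ventral and at 422 and 469 in whole (0.09 ± 0.28, edgeR adjusted p = 0.854). Of 13 transmitter and peptide genes Npy alone was called, lower, where 5.56% of all genes tested were. Slc17a6, the glutamate transporter of excitatory neurons, was at 18.7, 11.5 and 21.2 CPM against 24.6 and 24.7 (-0.53 ± 0.31, edgeR adjusted p = 0.277).

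Among 11 neural progenitor genes 3 were higher, where 5.13% of all genes tested were, and none lower, with a median of 0.64. Ptprz1, a receptor phosphatase of radial glia, was at 443, 215 and 455 CPM in ventral and at 112 and 112 in whole (1.73 ± 0.29, edgeR adjusted p = 0.00847). Slc1a3, the glutamate transporter GLAST of radial glia, was at 374, 166 and 356 CPM against 104 and 113 (1.46 ± 0.31, edgeR adjusted p = 0.0194), and the meninges held 287 to 425. Ttyh1, a membrane protein of neural stem cells, was called as well (1.24 ± 0.33, edgeR adjusted p = 0.0381, or 0.0533 with the length correction). In all 3 genes ventral batch 2 was lowest of the ventral libraries yet above both whole ones; without it 8 of the 11 were called, without ventral batch 1 the count was 1, and without either whole library it was 0. Of 9 genes of the intermediate cord only Sp8, a zinc finger factor, was called (1.75 ± 0.43, edgeR adjusted p = 0.0337).

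RNA of other cells of the cord and its coverings also differed, and in bulk libraries fewer cells of a type and less RNA per cell cannot be told apart. Of 12 microglia and macrophage genes, 8 were lower in ventral, where 5.56% of all genes tested were, and none was higher. Their median was -1.36 (-0.39 in the meninges). C1qa, a chain of complement component C1q made by microglia, was at 99.5, 158 and 131 CPM in ventral and at 408 and 384 in whole (-1.61 ± 0.18, edgeR adjusted p = 0.00315). Csf1r, the receptor that microglia need to survive, was at 320, 491 and 408 CPM against 1084 and 1030 (-1.38 ± 0.19, edgeR adjusted p = 0.00505). The fractalkine receptor Cx3cr1 was at 231, 358 and 297 CPM against 576 and 621 (-1.02 ± 0.20, edgeR adjusted p = 0.0145). No ventral library of these 3 genes reached a whole one.

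Tyrobp, C1qb, C1qc, Aif1 and Fcer1g, all genes of microglia and other myeloid cells, were lower too, with log2 fold changes of -1.51, -1.46, -1.45, -1.35 and -1.37. Of the 4 members not called, Mrc1, the mannose receptor of border macrophages, was at 87.4, 51.3 and 57.1 CPM in ventral and at 47.3 and 54.4 in whole (0.36 ± 0.26, edgeR adjusted p = 0.383). Lyve1, a hyaluronan receptor of such macrophages and of lymphatic vessels, was at 20.3, 3.1 and 8.65 CPM against 2.42 and 2.32 (2.16 ± 0.65, edgeR adjusted p = 0.0572). In the difference between cord and meninges none of the 12 was called, the smallest adjusted p being that of Tyrobp (-1.43, edgeR adjusted p = 0.0549). Without ventral batch 1 or 3 there were again 8 calls, without ventral batch 2 there were 9 lower and 2 higher, and there were 5 without whole batch 5 and 0 without whole batch 4.

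Genes of meningeal fibroblasts, which make the collagen-rich membranes around the cord, were higher in ventral in 10 of 18 cases and lower in none. Of all genes tested 5.13% were higher. The list had a median of 0.84 (-0.17 in the meninges). Col1a2, a chain of type I collagen, was at 602, 392 and 408 CPM in ventral and at 228 and 212 in whole, far below the 3794 to 5796 of the meningeal libraries. The groups did not overlap (1.09 ± 0.21, edgeR adjusted p = 0.0133), and between the meningeal batches its fold change was -0.53 ± 0.20. The difference was 1.61 (edgeR adjusted p = 0.0447, 0.0808 with the batch number as a block, and 0.0655 with the length correction). Col3a1, the type III collagen gene, was at 1130, 901 and 960 CPM against 553 and 494 (0.93 ± 0.17, edgeR adjusted p = 0.0123). Tbx18, a factor of perivascular and meningeal mesenchyme, was at 17, 22.7 and 15.1 CPM against 10.6 and 9.76 (0.84 ± 0.17, edgeR adjusted p = 0.0155).

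Several fibroblast genes were high in only 2 of the 3 ventral libraries. Lum, which encodes the collagen-binding proteoglycan lumican, was at 44.8, 1.91 and 45.8 CPM in ventral and at 1.18 and 0.93 in whole (4.88 ± 1.12, edgeR adjusted p = 0.0247). Pdgfra, a growth factor receptor of fibroblasts, was at 56.2, 8.17 and 38.4 CPM against 5.55 and 6.35 (2.52 ± 0.61, edgeR adjusted p = 0.0291). Slc6a13, a GABA transporter of the meninges, was at 17.3, 0.272 and 9.46 CPM against 0.522 and 0.258 (4.55 ± 1.26, edgeR adjusted p = 0.046), so its ventral batch 2 lay within the whole range. Dcn, Aldh1a2, Ogn and Postn made up the rest of the called members. Col1a1 and Foxc1 were not called (0.10 ± 0.23 and 0.16 ± 0.23, edgeR adjusted p = 0.816 and 0.662). The count was 3 without ventral batch 1, 7 higher and 1 lower without ventral batch 3, and 0 without either whole library.

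**Figure D2:**
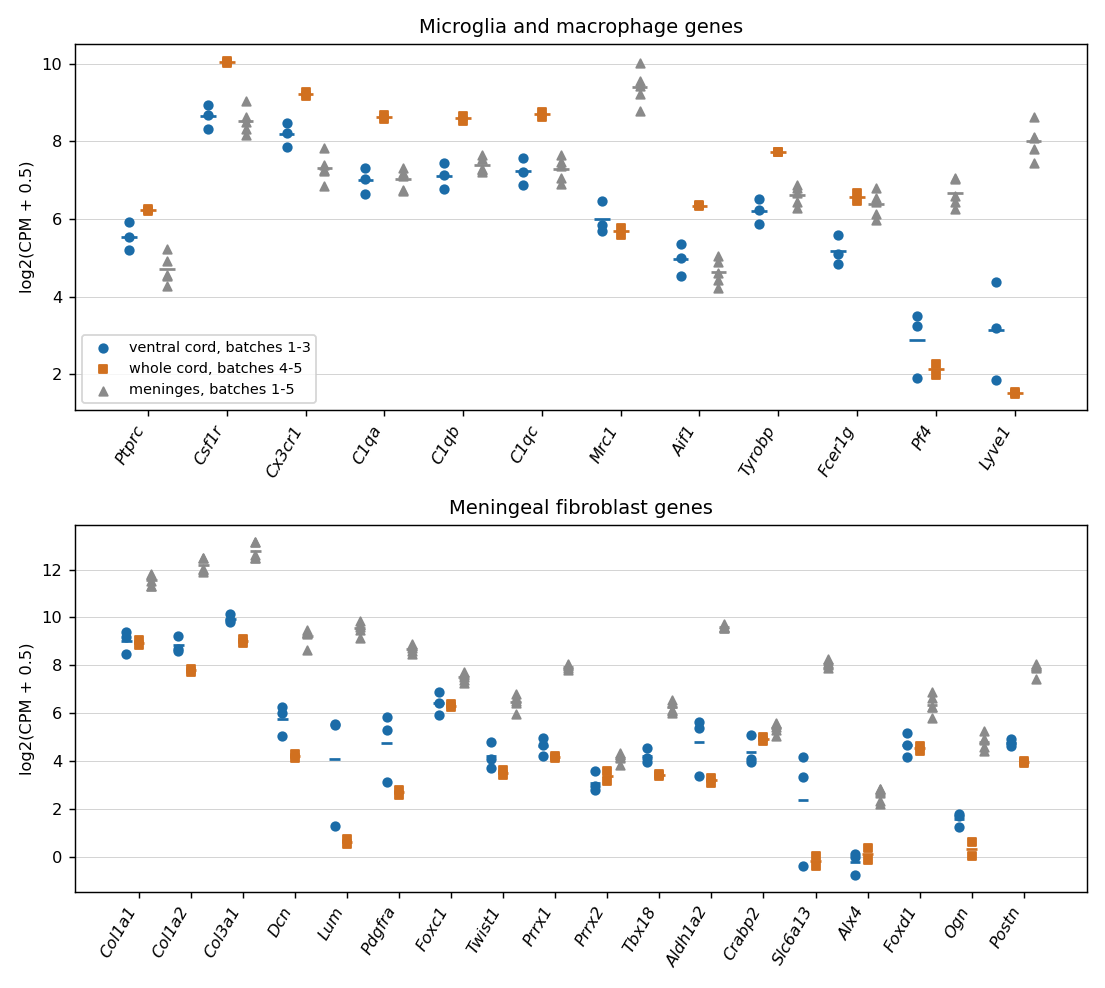
Levels of 12 microglia and macrophage genes (top) and 18 meningeal fibroblast genes (bottom), as log2(CPM + 0.5), in each library; bars are means of the log values per group. Csf1r, C1qa and Tyrobp are lower in all ventral than in both whole libraries, whereas Lum, Pdgfra and Slc6a13 are spread widely over the 3 ventral libraries.

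Other cell types gave few calls, where 5.13% of all genes tested were higher and 5.56% lower. None of 12 pericyte and smooth muscle genes was called (median 0.20), and Rgs5, a pericyte gene, was highest in ventral batch 2, at 1388, 3362 and 1051 CPM in ventral against 1511 and 1707 in whole. None of 12 erythroid genes was called (median -1.01); the embryonic haemoglobin Hbb-y ranged from 3307 CPM in ventral batch 1 to 25021 in ventral batch 2, and was at 34688 and 36865 in whole. In the meninges Hbb-y was highest in batch 1, at 44315 CPM, and at 6093 in batch 2. Prdm12, a factor of pain-sensing neurons, was higher and Runx1 lower among 7 sensory ganglion genes. Which cells the RNA of Prdm12 and Runx1 came from was not tested. Of 6 muscle and cartilage genes Col2a1, cartilage collagen, was higher (1.23 ± 0.35, edgeR adjusted p = 0.0486). None of the 6 was called with RLE scaling, with the length correction (edgeR adjusted p of Col2a1 = 0.0752), with only spinal libraries, or when any 1 library other than ventral batch 2 was left out.

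Endothelial genes were below 0 in both tissues. All 20 endothelial marker genes had a log2 fold change below 0 in the cord and all 20 in the meninges, with medians of -0.53 and -0.71. In the cord 1 of the 20 was called lower, where 5.56% of all genes tested were. DESeq2 called 7 lower, 4 were lower without ventral batch 1, and 0 without ventral batch 3 or either whole library. The gene called by edgeR was Erg, an ETS transcription factor that keeps endothelial identity, at 58.4, 51.1 and 33.3 CPM in ventral and at 85.9 and 90.9 in whole (-0.89 ± 0.23, edgeR adjusted p = 0.0366). Its fold change in the meninges was -0.89 ± 0.24, and the difference was -0.01 (edgeR adjusted p = 0.997). Summed over the 20 genes, the cord libraries held 4671, 3654 and 2466 CPM in ventral and 5427 and 5162 in whole, and the meningeal ones 1306 to 2673. Endothelial genes were thus present in each library, and batch 3 was lowest of the ventral ones.

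Kdr was at 857, 661 and 425 CPM in ventral and at 901 and 881 in whole (-0.46 ± 0.26, edgeR adjusted p = 0.266). Pecam1, the adhesion molecule CD31, was at 386, 324 and 212 CPM against 480 and 477 (-0.64 ± 0.23, edgeR adjusted p = 0.0938). Cldn5, the main claudin of endothelial tight junctions, was at 429, 264 and 209 CPM against 556 and 501 (-0.81 ± 0.33, edgeR adjusted p = 0.128). All ventral values of these 3 genes lay below the whole ones without passing the test, and their meningeal fold changes were -0.80, -0.77 and -0.79.

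Of 25 genes of the barrier between blood and nervous tissue 1 was higher and none lower (median -0.28, and -0.47 in the meninges). Of all genes tested 5.13% were higher and 5.56% lower. Reck, a membrane protein through which endothelial cells sense Wnt7, was at 44.7, 46.3 and 37.5 CPM in ventral and at 33.2 and 28.6 in whole (0.47 ± 0.13, edgeR adjusted p = 0.0444). The meninges held more, 82.3 to 112 CPM, and with a correction for exon length Reck was not called (edgeR adjusted p = 0.065). The glucose transporter Slc2a1 was at 1320, 1003 and 729 CPM against 1478 and 1396 (-0.50 ± 0.25, edgeR adjusted p = 0.208). The amino acid transporter Slc7a5 had a fold change of -0.53 ± 0.24 (edgeR adjusted p = 0.178).

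Genes of peripheral and fenestrated vessels were lower in 3 of 9 cases, against 5.56% of all genes tested. Vwf, von Willebrand factor, was at 164, 110 and 94.1 CPM in ventral and at 287 and 268 in whole (-1.18 ± 0.23, edgeR adjusted p = 0.0143). Icam2, an adhesion molecule, was at 30.6, 24 and 18.6 CPM against 45.5 and 42.6 (-0.85 ± 0.23, edgeR adjusted p = 0.0439), and was not called with a correction for exon length (edgeR adjusted p = 0.121). Gpihbp1, which anchors lipoprotein lipase to capillaries, was under 1 CPM in all 5 libraries (-2.03 ± 0.52, edgeR adjusted p = 0.0364). The meningeal fold changes of these genes were -0.90, -0.54 and -0.46, and none was called in the difference. Plvap, the protein of fenestral diaphragms, was not called (-0.41 ± 0.24, edgeR adjusted p = 0.274).

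**Figure D3:**
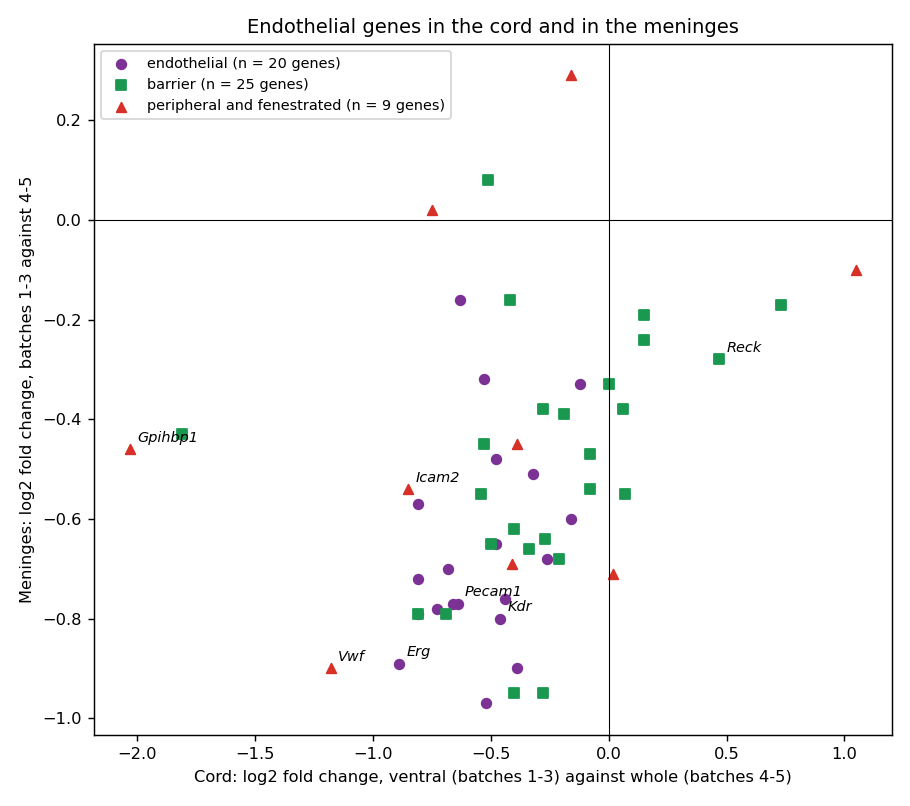
Log2 fold change in the cord (x axis, ventral against whole) and in the meninges (y axis, batches 1-3 against 4-5) of 20 endothelial, 25 barrier and 9 peripheral and fenestrated vessel genes; each point is a gene, and Cldn5 is in 2 lists. All 20 endothelial genes lie below 0 on both axes, and Erg is at -0.89 on each.

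No arterial gene of 13 and no venous gene of 6 was called, where 5.13% of all genes tested were higher and 5.56% lower. Of 14 tip cell genes 1 was lower: Kcne3, a potassium channel subunit of sprouting cells, was at 2.17, 2.18 and 1.8 CPM in ventral and at 5.75 and 5.94 in whole (-1.51 ± 0.32, edgeR adjusted p = 0.0191). In the list of guidance receptors and their ligands 1 of 17 was called. Sema3a, a secreted repellent of axons and vessels, was at 33.5, 21.2 and 45.2 CPM against 10.7 and 12.3 (1.53 ± 0.28, edgeR adjusted p = 0.0118), and the meninges held 19.8 to 27.2. Plxnd1, the endothelial receptor for class 3 semaphorins, was at 680, 535 and 406 CPM against 759 and 668 (-0.40 ± 0.24, edgeR adjusted p = 0.282). Cxcr4, the receptor for Cxcl12 that is enriched in sprouts, was at 126, 102 and 106 CPM against 115 and 123 (-0.10 ± 0.20, edgeR adjusted p = 0.768). For Plxnd1 and Cxcr4 the groups overlapped.

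Among 24 Hox genes, which give position along the body axis, Hoxc6 and Hoxc10 were higher and none of the 24 lower. Of all genes tested 5.13% were higher and 5.56% lower. Log2 fold changes were 0.97 ± 0.25 for Hoxc6 and 0.69 ± 0.18 for Hoxc10 (edgeR adjusted p = 0.0383 and 0.0376). Hoxc13, which is not in this list, was lower (-3.97 ± 0.86, edgeR adjusted p = 0.0201). The count of the list was 14 higher without ventral batch 2, and 0 without ventral batch 1 or 3, meningeal batch 4 or 5, or either whole library. None of 15 proliferation genes was called (median 0.07). Of 11 immediate early genes Fosb, a part of the AP-1 factor, was higher, at 265, 374 and 127 CPM in ventral and at 83.5 and 87.1 in whole (1.58 ± 0.34, edgeR adjusted p = 0.0201). Of 15 glycolysis and hypoxia genes 5 were lower (Pfkl, Pkm, Tpi1, Ldha and Gapdh), against 5.56% of all genes tested. The list had a median of -0.54, and -0.01 in the meninges. Ldha, lactate dehydrogenase A, was at 235, 311 and 242 CPM against 412 and 425 (-0.67 ± 0.16, edgeR adjusted p = 0.0257). The count was 1 without ventral batch 1, 8 without ventral batch 2, 3 without meningeal batch 4 and 0 without either whole library. Without either whole library, the barrier, peripheral vessel, tip cell, guidance and immediate early lists, and those of ventral interneurons and the intermediate cord, gave 0 calls. Over all lists, 25 members were higher and 27 lower, among 335 tested, against 5.13% and 5.56% of all genes tested. The lists were chosen with earlier results of these data known.

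**Figure D4:**
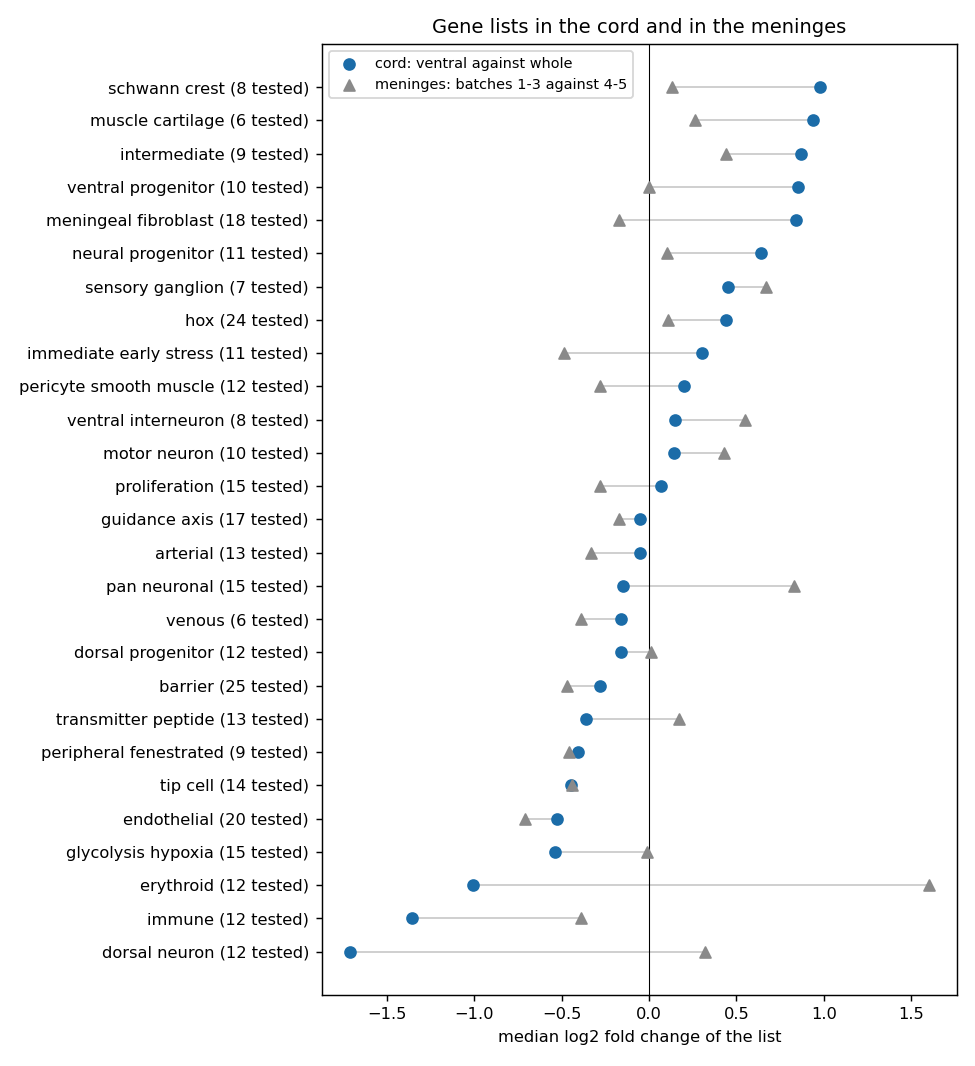
Median log2 fold change of the gene lists in the cord (circles, ventral against whole) and in the meninges (triangles, batches 1-3 against 4-5), with the number of members tested. The list of 5 sex-linked genes is not shown. Dorsal neuron genes (-1.71) and immune genes (-1.36) lie lowest in the cord, and the endothelial list is below 0 in both tissues.

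The difference of the 2 contrasts, ventral against whole less batches 1 to 3 against 4 to 5 of the meninges, was called in 25 genes with a higher and 73 with a lower value, 0.547% of those tested. Of the 25, all were called higher in the cord, and of the 73, 69 were called lower there. With the batch number as a block, which pairs cord and meninges, the counts were 1 and 3, and with a correction for exon length 3 and 0. Leaving out any library other than ventral batch 3 moved the total over 1.5 times, to between 0 (without whole batch 4 or 5, or meningeal batch 5) and 1190 (without ventral batch 2). Ccn4, a secreted Wnt-induced matrix protein, was at 7.28, 6.7 and 6.31 CPM in ventral and at 1.7 and 1.5 in whole, and at 72.5 to 78.7 in the meninges. Its difference was 2.13 (edgeR adjusted p = 0.0043, or 0.0431 with the block and 0.00801 with the length correction).

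Sfrp2, a secreted Wnt modulator of neural progenitors, was at 198, 197 and 223 CPM in ventral and at 96.4 and 91 in whole, and only at 14.4 to 19.4 in the meninges (difference 1.32, edgeR adjusted p = 0.0294). Dkk3, a secreted Dickkopf family protein, had a difference of 1.20, and Adgrg6, an adhesion receptor of Schwann cells and other tissues, one of 1.29 (edgeR adjusted p = 0.0294 for both). With the block these 3 had adjusted p of 0.0609, 0.0636 and 0.0636. Among the genes with a lower value were Rpl36, a ribosomal protein (-1.45), Use1, a membrane trafficking protein (-1.12), and Uqcc2, an assembly factor of respiratory complex III (-1.16). These 3 were not called with the block (edgeR adjusted p = 0.0609, 0.0692 and 0.0695).

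The 6 genes called in both tissues differed between batches 1 to 3 and 4 to 5 in the meninges too. Rpsa-ps10, a pseudogene of a ribosomal protein, was at 0.294, 0.218 and 0.405 CPM in ventral and 89.9 and 80.9 in whole, and at 0.757 to 0.973 in meningeal batches 1 to 3 and 70.3 and 93.7 in batches 4 and 5. Rpl26, a ribosomal protein gene, was lower in both (-3.46 ± 0.23 in the cord, -2.02 ± 0.22 in the meninges), as was Nfatc2, a calcium-regulated transcription factor (-2.54 ± 0.17 and -1.70 ± 0.17). Cwc22, a splicing factor, was higher in both, at 186, 231 and 233 CPM in ventral and at 35.6 and 40.5 in whole (2.51 ± 0.20 and 1.89 ± 0.19). Gene copies that resemble each other can share or lose reads, so the values of Rpsa-ps10 and Rpl26 are uncertain. Their meningeal adjusted p by edgeR was 1.1e-07 for Rpsa-ps10, 0.01 for Rpl26, 0.0062 for Nfatc2 and 0.0062 for Cwc22. The other two were Gm9816, lower, and Got2-ps1, higher.

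Many of the genes with the largest fold changes had low levels. Trim12a, of the antiviral TRIM family, was at 1.7, 2.29 and 1.4 CPM in ventral and at 0 in both whole libraries, but also at 1.5 to 3.47 in meningeal batches 1 to 3 and at 1.1 and 0.269 in batches 4 and 5. Snord45b and Cdc34b were at 0 in both whole libraries as well and under 1 CPM in ventral. Pax9, a factor of sclerotome, was at 2.35, 1.09 and 2.12 CPM against 0 and 0.258 and at 10.8 to 13.4 in the meninges. Mir5117, Itgbl1, Gjb6, Adra1d and AK157302 completed the 10 largest, with Lum. On the lower side, Hoxc13, the most posterior gene of its cluster, was at 0.235, 0.381 and 0.0901 CPM in ventral and at 3.72 and 3.67 in whole. Gpnmb, a glycoprotein of phagocytes, was at 0.176, 0.218 and 0.225 CPM against 3.59 and 2.63. Ppnr, BC023719, Cbr2, BC002163, Svet1, Prss56 and Rpsa-ps10 were also among the largest.

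Calls also varied with gene length. Of 2929 tested protein-coding genes in the shortest of 5 classes of equal size by summed exon length (255 to 1928 bases), 29 were higher and 359 lower in ventral, with a median of -0.25. In the longest class (5612 to 123179 bases) 298 of 2925 were higher and 58 lower, with a median of 0.21. The medians of these classes in the meninges were 0.07 and -0.08. A fit that removed the trend of each library with exon length called 655 genes higher and 862 lower in the cord, and 1329 of the 1913 calls were among them in the same direction. The part that RNA quality or fragment size played in this trend was not tested.

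**Figure D5:**
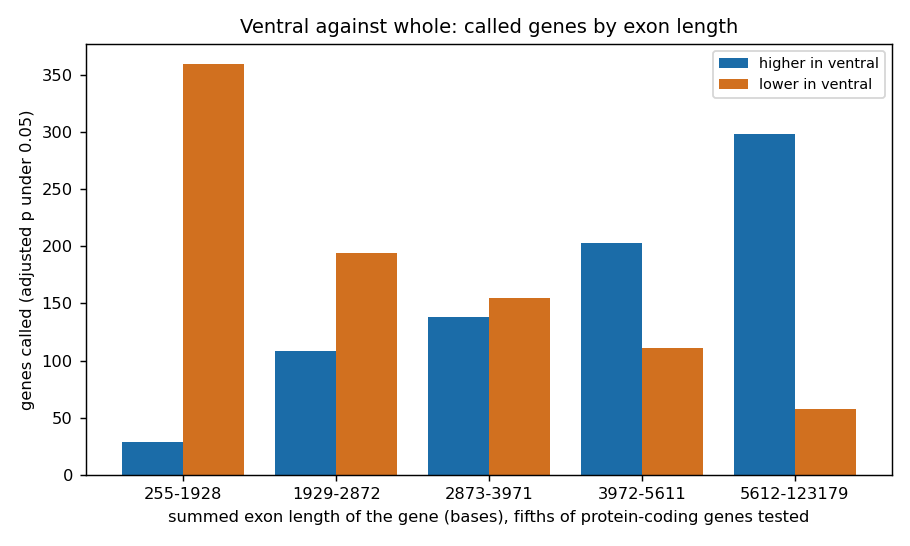
Number of protein-coding genes called higher or lower in ventral than in whole cord, in 5 classes of summed exon length. The bars for lower genes fall from 359 in the shortest class to 58 in the longest, and those for higher genes rise from 29 to 298.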

How the data were processed

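The deposited values are raw counts per gene. Per the file headers, the authors made them with featureCounts 1.6.4, counting read pairs over exons per gene name with a reverse strand setting, on the GENCODE M22 basic annotation. Per the submitters' processing notes, reads were trimmed with Trimmomatic 0.39 and aligned with STAR 2.5.3a to GRCm38 (mm10), and DESeq2 was used. The knockout series was not used here, since the headers show its reads were counted single-end and unstranded.

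The 10 regional libraries were fitted together as 4 groups with edgeR 4.0.16 in R 4.3.3 (TMM scaling, filterByExpr with a minimum count of 10, quasi-likelihood F-test, 6 residual degrees of freedom, Benjamini-Hochberg threshold of 0.05). Contrasts were ventral against whole, meningeal batches 1 to 3 against 4 to 5, and their difference. DESeq2 1.42.0 and other settings served as alternatives. Libraries are pools, and nothing in the labels says how many embryos each held, so the p-values cover only how these libraries vary, which may be technical. The titles give cord and meninges shared batch numbers, so libraries of 1 number were taken as pairs. Their deviations from the group means correlated at -0.297, -0.0919, 0.303, 0.0872 and 0.0872 for batches 1 to 5. In a group of 2 libraries the deviations mirror each other, so batches 4 and 5 give the same value by construction.

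Members and the 28 gene lists were chosen with earlier results of these data known. Named genes were 8 fixed ones, the 10 largest non-overlapping calls per direction (predicted gene models left out), per list up to 4 called members of smallest p and 2 uncalled ones of highest level, and the 5 of smallest p per direction of the other contrasts. Tlx3, Gbx1, Pou4f1, Pdgfra, Slc6a13, Aldh1a2, Ogn, Postn, Cx3cr1, C1qc, Aif1, Fcer1g, Gapdh, Gsx1, Pax3, Pax7, Olig3, Nkx2-2, Mnx1, Chat and Lyve1 lie outside this rule, and like the exon length classes were picked once their values were known. Some genes that the rule names are not reported here.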

Additional observations from a re-analysis of the deposited data

Results flagged for a closer look

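In 12 named genes the change in the cord differed from that in the meninges by the test of the difference itself (edgeR adjusted p under 0.05). The log2 difference was above 0 for Ccn4 (2.13), Nkx6-1 (1.68), Col1a2 (1.61), Col3a1 (1.56), Sfrp2 (1.32), Adgrg6 (1.29), Tbx18 (1.26) and Dkk3 (1.20). It was below 0 for Npy (-3.56), Rpl36 (-1.45), Uqcc2 (-1.16) and Use1 (-1.12). With the batch number as a block, Ccn4 and Npy had an adjusted p under 0.05 and the others did not. With the exon length correction Ccn4, Sfrp2 and Dkk3 did, and Npy did not (edgeR adjusted p = 0.0521).

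Among the 5 meningeal libraries, 1 lay far from the other 4 in 9 of 108 named genes. Chance alone sets apart about 1 in 20 groups, and Prdm13, Barhl1, Chat, Lhx2 and Nkx2-2 were under 1 CPM. Batch 3 was highest for Prdm12 (17.3 CPM), Prdm13 (0.346), Barhl1 (0.289) and Chat (0.173), and lowest for Dcn (397). Batch 1 was highest for Hbb-y (44315 CPM). Batch 5 was highest for Aldh1a2 (850 CPM) and Lhx2 (0.377), and batch 4 for Nkx2-2 (0.096).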

How the results depend on the processing

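With 2 whole libraries and dissection confounded with batch, calls rest on few libraries. Genes called between ventral and whole cord (1913) numbered 3168 by DESeq2, 3240 without a filter, 995 with only spinal libraries, and 15 to 3122 when 1 library was left out, the lowest without whole batch 4 and the highest without ventral batch 2. In the meninges (6) they numbered 141 by DESeq2, 835 without a filter, 3 with only meningeal libraries, and 1 to 9 with 1 library left out. For the difference (98) they numbered 1321 by DESeq2, 305 with RLE scaling, 1780 without a filter, 236 with at least 5 CPM in 2 libraries, 3 with the exon length correction, and 0 to 1190 with 1 library left out. The replicate block gave 4, and with meningeal numbers 1 and 2 crossed, a pairing chosen after seeing the data, it gave 1237. The exon length correction was also added after seeing the data. List members called (52) numbered 93 by DESeq2, 141 without a filter, 27 with only spinal libraries, and 1 to 96 with 1 library left out. The summed dorsal level of whole cord was 135 CPM, and 132 by total counts. Of 81 called named genes none changed sign, and 80 were called by DESeq2, 71 with the exon length correction, 7 without whole batch 4 and 20 without whole batch 5. Signs turned only in uncalled genes: with the length correction Cxcr4 (0.04), Map2 (-0.13) and Col1a1 (-0.03), and for Pax3 with at least 5 CPM (0.00) and only spinal libraries (0.01). With 1 library left out, uncalled log2 fold changes ran from -0.26 to 0.35 for Map2, -0.08 to 0.30 for Col1a1, -0.08 to 0.35 for Foxc1, -0.38 to 0.54 for Rgs5, -0.19 to 0.95 for Eif2s3y, -0.17 to 0.27 for Pax3, -0.35 to 0.45 for Mnx1 and -0.42 to 0.61 for Chat.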

Other observations

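Small nucleolar RNA genes, which guide the chemical modification of ribosomal RNA, were higher in ventral than in whole cord in 11 of 53 tested cases and lower in none (5.13% of all genes tested were higher), with a median log2 fold change of 1.49 (0.65 in the meninges). They made up 0.00737% to 0.0082% of the counts in ventral and 0.00293% and 0.00306% in whole libraries. Those 53 were the genes named Snord or Snora. Of 123 genes annotated as small nucleolar RNA, 32 were higher and none lower (median 1.48). Polyadenylated RNA was sequenced, and whether these reads came from the small RNAs or from longer transcripts that hold them was not tested. Genes of ribosomal proteins were lower in 35 of 84 cases (5.56% of all genes tested were lower) and higher in none, with a median of -0.62 and, in the meninges, 0.33. These classes were chosen after their values were seen, and the part of transcript length in them was not tested.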
